A study of Homo sapiens with 6 samples.

Results

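The 10 genes described here are known transcriptional targets of the coactivators YAP and TAZ, taken by symbol from a human gene expression table: CCN1, CCN2, ANKRD1, AMOTL1, AMOTL2, AJUBA, LATS2, AXL, CRIM1 and TEAD1. Each symbol matched 1 Ensembl gene ID, so 10 of the 30178 genes in the table were taken, by name and with no threshold on their values. RNA was sequenced from CAL27, an established human line grown from an oral cancer and labelled as adenosquamous carcinoma. The libraries came from stable lines kept in DMEM with serum and the selection drug G418: an empty vector line (labelled EmpVec), a line with constitutive expression of the wild-type form of MB21D2, and a line with constitutive expression of its Q311E form, in which a glutamate replaces a glutamine. The labels' treatment text speaks of GFP-fused proteins. There were 2 libraries, A and B, in each of the 3 groups. Nothing in the labels tells whether A and B came from separate cultures or whether a line was 1 clone. The p-values therefore reflect spread among these particular libraries, possibly only technical spread, and a difference between lines cannot be told apart from a difference between clones.

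YAP and TAZ (the latter encoded by WWTR1) have no DNA-binding domain of their own and reach their target genes through the TEAD transcription factors. The Hippo kinases LATS1 and LATS2 phosphorylate both coactivators, which keeps them out of the nucleus or marks them for degradation. Several targets feed back on the pathway: LATS2 is itself a target, and the motins AMOTL1 and AMOTL2 bind YAP in the cytoplasm and at cell junctions. YAP and TAZ respond to cell density, matrix stiffness and the actin cytoskeleton, and they are often active in squamous carcinomas.

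The promoter sequences are shown first, because the 2 genes that moved in both MB21D2 lines, CCN1 and CCN2, are textbook targets of TEAD factors. RefSeq starts on GRCh38.p14 were given for 7 of the 10 genes. None was given for CCN1, CRIM1 and TEAD1, so these were not searched. The 250 bases upstream of each given start were searched on both strands for GGAATG, the core of the TEAD element. The CCN2 region held these letters 3 times, with first bases at positions -169, -104 and -95 from the start, and none of the 3 overlapped another. Of the 35116 upstream regions in the same table, 11.9% held the letters at least once, 0.94% at least 2 times and 0.0826% at least 3 times. The CCN2 sequence, chr6:131951374-131951622 on the minus strand and cut where its first annotated exon begins, is printed 5′ to 3′ with GGAATG in capitals.
CCN2: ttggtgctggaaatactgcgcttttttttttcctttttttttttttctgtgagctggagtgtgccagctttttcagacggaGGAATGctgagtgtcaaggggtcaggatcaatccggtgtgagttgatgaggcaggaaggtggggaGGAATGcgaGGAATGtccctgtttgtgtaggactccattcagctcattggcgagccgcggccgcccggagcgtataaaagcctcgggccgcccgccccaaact

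The same letters occurred elsewhere among the 10 genes, and each match is printed with 12 bases on either side, on the strand that reads GGAATG, so that the flanks can be compared. ANKRD1 had 2 matches, at chr10:90921290-90921319 and chr10:90921198-90921227 on the minus strand. AMOTL2 had 1 match upstream of the second of its 2 starts (chr3:134374499-134374528, plus strand), AJUBA 1 upstream of its second start (chr14:22976884-22976913, minus strand), and AXL 1 upstream of its second start (chr19:41226531-41226560, minus strand). The second ANKRD1 match and those of AMOTL2 and AJUBA lie inside exons that GENCODE release 29 annotates for the gene. That annotation places the ANKRD1 start further upstream, and the second starts of AMOTL2 and AJUBA lie downstream of their first.
ANKRD1, first match: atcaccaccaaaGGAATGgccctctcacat
ANKRD1, second match: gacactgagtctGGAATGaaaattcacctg
AMOTL2: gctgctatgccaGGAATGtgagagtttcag
AJUBA: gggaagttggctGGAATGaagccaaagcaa
AXL: agcggagggagtGGAATGgtgcaaagtctg
Upstream regions of AMOTL1 and LATS2 held no GGAATG, which says only that these letters are not in those windows. TGANTCA is a loose form of the AP-1 element, with any base in the centre where the usual element has C or G. It was found once, as TGATTCA upstream of ANKRD1, against 6.57% of all upstream regions. The CArG box bound by SRF was found in none of the 7 genes, against 1.16%. A match is a description of the letters and not a measured binding site.

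Facts about the libraries that bear on all results come next. The library totals behind the deposited FPKM values (reads scaled by gene length and library total) lay between 20645410 and 24147306 reads. MB21D2 itself stood at 8.31 and 7.15 FPKM in the vector libraries A and B, 104 and 106 in the wild-type libraries, and 32.8 and 21.2 in the Q311E libraries, so the 2 forms differed in level as well as in sequence. The SD over tested genes of the log2 difference between libraries A and B was 0.192 in the vector pair, 0.145 in the wild-type pair and 0.436 in the Q311E pair, and the Q311E libraries therefore stand apart from each other. Of the 10 epithelial markers examined, 0 were under 1 FPKM in every library. KRT14 was at 762 and 697 FPKM in the vector, at most 2.35 in the wild-type line, and 0.771 and 0.902 in Q311E. KRT6A was at 109 and 104 in the vector and 7.9 to 16.7 in the other libraries. KRT17 went the other way in Q311E, at 118 and 123 against 75.1 and 79.3 in the vector. Of 15 fibroblast, endothelial and blood cell markers with a value, 11 were under 1 FPKM in every library. The exceptions were COL1A1 and COL1A2, at no more than 1.85 FPKM, the cadherin CDH5, at 15.4 to 35.2, and CD14, which stood at 18.8 in Q311E B against 1.78 to 4.93 elsewhere.

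**Figure D1:**
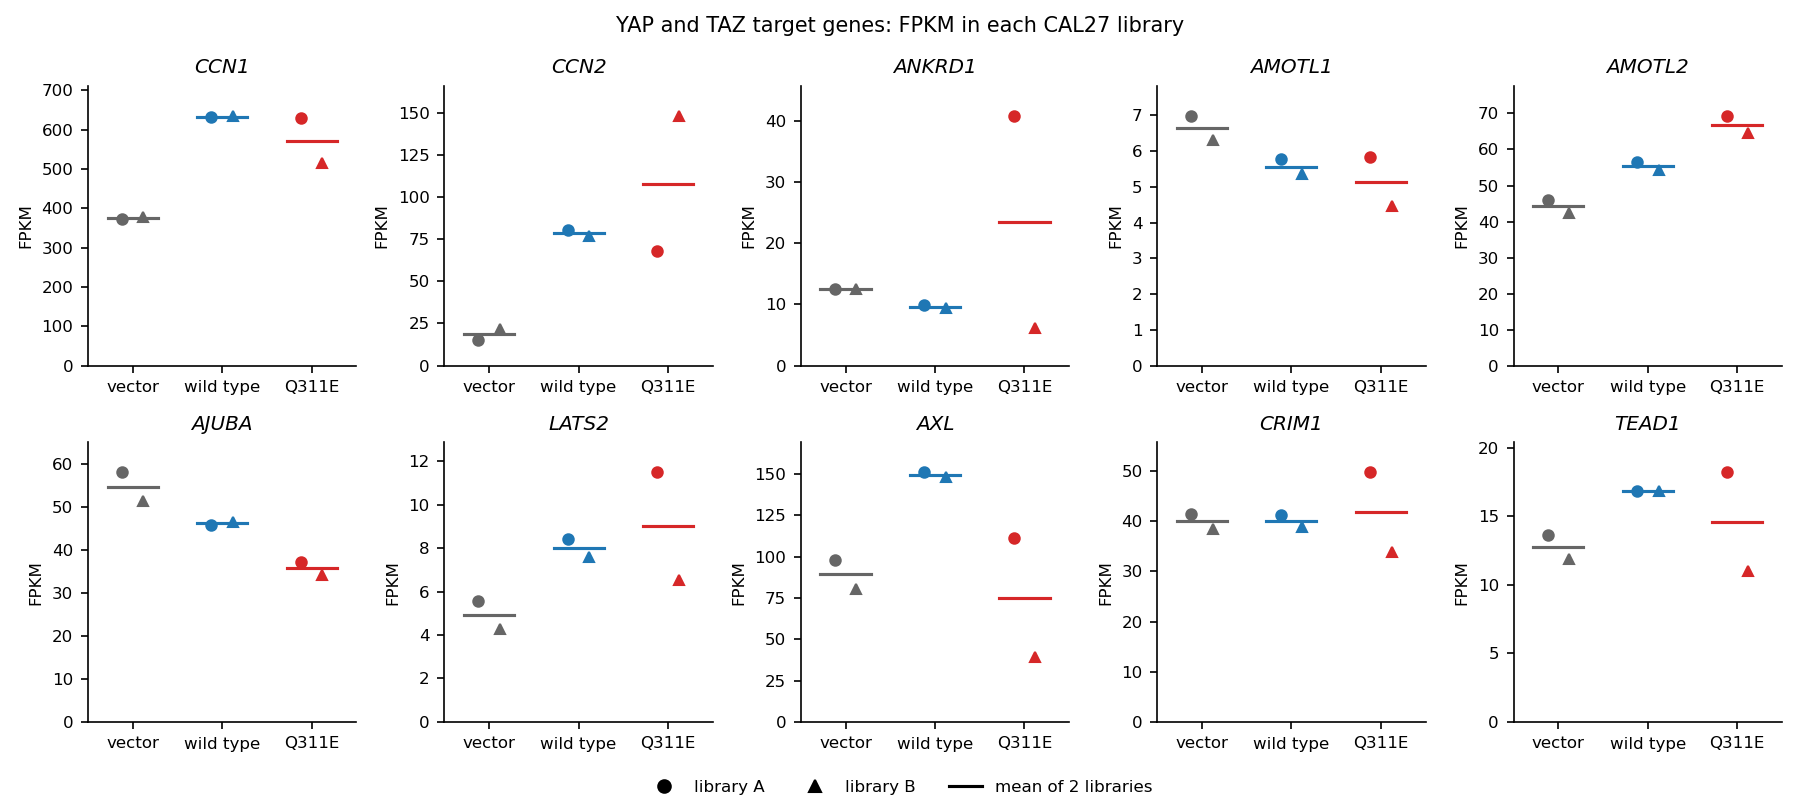
FPKM (vertical axes, starting at 0) of the 10 genes in the vector, wild-type and Q311E lines, with circles for library A, triangles for library B and a bar for the mean of the 2. CCN1 and CCN2 are higher in both MB21D2 lines, while ANKRD1 ranges from 6.12 to 40.8 FPKM within the Q311E line.

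CCN1 and CCN2 encode secreted matricellular proteins that bind integrins and are the most widely used readouts of YAP and TAZ. CCN1 (ENSG00000142871, GRCh38 chromosome 1, 85580761 to 85583962) was the most abundant of the 10 genes, above 99.6% of tested genes. It stood at 372 and 377 FPKM in the vector libraries, 632 and 635 in the wild-type libraries, and 629 and 515 in the Q311E libraries. All 4 MB21D2 libraries were above both vector libraries. Folds between lines, here and below, are ratios of mean FPKM. The log2 fold changes, with their SE, intervals and p, come from log2(FPKM + 1) and can be smaller. CCN1 rose 1.69-fold in the wild-type line (0.76 ± 0.13 SE as a log2 fold change, limma adjusted p = 0.024) and 1.53-fold in the Q311E line (0.60 ± 0.13, limma adjusted p = 0.033). Between the 2 MB21D2 lines its difference was -0.16 (95% interval -0.48 to 0.16, limma adjusted p = 0.384).

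CCN2 (ENSG00000118523, GRCh38 chromosome 6, 131948176 to 131951373) had the largest fold change of the 10 genes in both comparisons with the vector. Its values were 15.3 and 21.9 FPKM in the vector libraries, 80.5 and 77.1 in the wild-type libraries, and 67.7 and 148 in the Q311E libraries. The lowest MB21D2 library was thus 67.7 against a highest vector library of 21.9. CCN2 rose 4.23-fold in the wild-type line (2.04 ± 0.37, limma adjusted p = 0.0299) and 5.78-fold in the Q311E line (2.38 ± 0.37, limma adjusted p = 0.0162). The 2 MB21D2 lines overlapped, with a difference of 0.34 (95% interval -0.60 to 1.28, limma adjusted p = 0.513).

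The calls of both CCN genes depended on the pairs of vector and wild-type libraries. Leaving out vector A, vector B, wild type A or wild type B in turn ended the calls of CCN1 and CCN2 in both comparisons with the vector, with the lone library assumed to vary like the others. For wild type against vector the adjusted p then ran from 0.164 to 0.217 for CCN1 and from 0.168 to 0.199 for CCN2, with log2 fold changes of 0.75 to 0.77 and 1.80 to 2.29. For Q311E against vector it ran from 0.116 to 0.203 for CCN1 and from 0.0632 to 0.133 for CCN2, with log2 fold changes of 0.59 to 0.61 and 2.14 to 2.63. Leaving out either Q311E library kept the calls of both genes in both comparisons, in fits that called more of all tested genes. CCN2 against the vector was 2.94 without Q311E A and 1.83 without Q311E B, and against the wild type it was -0.22 without Q311E B. CCN1 in the Q311E line also lost its call under TPM scaling (adjusted p = 0.0536) and quantile normalization (0.0699), and in the wild-type line under the latter (0.0509). Without the filter on low values the calls of both genes in both lines were lost (adjusted p from 0.0569 to 0.115). Between the MB21D2 lines, leaving out Q311E A gave log2 fold changes of -0.30 for CCN1 and 0.90 for CCN2.

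The motins AMOTL1 and AMOTL2 are scaffold proteins of cell junctions that bind YAP and promote LATS kinase activity, and the 2 genes did not move together. AMOTL2 (ENSG00000114019, GRCh38 chromosome 3, 134355874 to 134375479) stood at 46.0 and 42.5 FPKM in the 2 vector libraries, 56.4 and 54.3 in the wild-type libraries, and 69.3 and 64.5 in the Q311E libraries. The 3 groups did not overlap, and the order was vector, wild type, Q311E. AMOTL2 rose 1.51-fold in the Q311E line (0.59 ± 0.08, limma adjusted p = 0.0132). Its 1.25-fold difference between wild type and vector missed the threshold (0.32 ± 0.08, limma adjusted p = 0.0661; 0.0346 with median scaling), and so did that between Q311E and wild type (0.27 ± 0.08, limma adjusted p = 0.0635). Without 1 vector or 1 wild-type library the call in Q311E was lost (adjusted p from 0.0667 to 0.117).

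AMOTL1 (ENSG00000166025, GRCh38 chromosome 11, 94706431 to 94876753) was among the lowest of the 10 genes. It measured 6.98 and 6.30 FPKM in vector A and B, 5.77 and 5.35 in the wild-type libraries, and 5.83 and 4.46 in the Q311E libraries. Both vector libraries were above all 4 MB21D2 libraries, but no comparison passed the test. The log2 fold change was -0.22 ± 0.13 for wild type against vector (limma adjusted p = 0.305) and -0.32 ± 0.13 for Q311E against vector (limma adjusted p = 0.147). Without Q311E A the latter was -0.48, and without Q311E B it was -0.16. The third motin gene, AMOT, was listed among the pathway genes and rose in the Q311E line, from a mean of 2.56 to 8.32 FPKM (1.37 ± 0.18, limma adjusted p = 0.011).

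AJUBA and LATS2 act at the kinase step: LATS2 is a kinase that inactivates YAP and TAZ, and AJUBA is a LIM-domain protein of cell junctions that holds LATS kinases back. AJUBA (ENSG00000129474, GRCh38 chromosome 14, 22971174 to 22982642) stood at 58.1 and 51.4 FPKM in the vector libraries, 45.9 and 46.6 in the wild-type libraries, and 37.2 and 34.3 in the Q311E libraries. The groups did not overlap, with vector highest and Q311E lowest. AJUBA fell in the Q311E line to 0.652 of the vector level (-0.60 ± 0.09, limma adjusted p = 0.0153) and was also lower there than in the wild-type line (-0.36 ± 0.09, limma adjusted p = 0.0388). It was the only 1 of the 10 genes called between the 2 MB21D2 lines. Against the vector, the wild-type line gave -0.24 ± 0.09 (limma adjusted p = 0.15). Without 1 vector or 1 wild-type library the calls were lost, with adjusted p from 0.0716 to 0.127 against the vector and from 0.0757 to 0.22 against the wild type. The second call also ended without the filter on low values (adjusted p = 0.0827), under TPM scaling (0.0863), with only the 2 groups (0.0756) and with group weights (0.0978), and the first ended with only the 2 groups (0.072).

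LATS2 (ENSG00000150457, GRCh38 chromosome 13, 20973032 to 21061547) had the lowest level of the 10 genes in the vector line. Its values were 5.58 and 4.27 FPKM in the vector libraries, 8.42 and 7.59 in the wild-type libraries, and 11.5 and 6.54 in the Q311E libraries. All 4 MB21D2 libraries were above both vector libraries, as for CCN1 and CCN2. Neither comparison with the vector passed the test: the log2 fold change was 0.61 ± 0.26 for wild type (limma adjusted p = 0.171) and 0.72 ± 0.26 for Q311E (limma adjusted p = 0.109). The 2 Q311E libraries differed 1.76-fold. Without Q311E B the log2 fold change against the vector was 1.09, while without Q311E A it was 0.36.

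TEAD1 encodes a DNA-binding partner of YAP and TAZ. TEAD1 (ENSG00000187079, GRCh38 chromosome 11, 12674591 to 12944483) had 13.6 and 11.9 FPKM in vector A and B, 16.8 and 16.8 in the wild-type libraries, and 18.2 and 11 in the Q311E libraries. The wild-type libraries were above the vector libraries, while the Q311E libraries lay on both sides of them. No comparison passed: wild type against vector was 0.37 ± 0.22 (limma adjusted p = 0.303), Q311E against vector 0.14 ± 0.22 (limma adjusted p = 0.688) and Q311E against wild type -0.23 ± 0.22 (limma adjusted p = 0.456). Q311E against vector turned with the library kept, at -0.20 without Q311E A (adjusted p = 0.111) and 0.48 without Q311E B (adjusted p = 0.0105).

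The coactivators, the other TEAD genes and the VGLL cofactors, which compete with YAP and TAZ for TEAD proteins or bind them in their place, were examined beside it. Of these 9 genes limma called 1 higher and 1 lower in the wild-type line, and 1 higher and 0 lower in the Q311E line (1 lower at an unadjusted p under 0.05, 0 with limma-voom on recovered reads). YAP1 stood at 34.2 and 29.7 FPKM in the 2 vector libraries, 35.2 and 33.5 in the wild-type libraries, and 31.5 and 32.6 in the Q311E libraries, and it was called in no comparison (limma adjusted p from 0.449 to 0.961). WWTR1 had 9.08 and 9.04 in the vector libraries, 12.5 and 11.8 in the wild-type libraries, and 11.8 and 10.3 in the Q311E libraries, with a difference of 0.39 ± 0.09 between wild type and vector that missed the threshold (limma adjusted p = 0.0513). With limma-voom, 2 of the 9 were called higher and 1 lower in the wild-type line. The limma shares over all tested genes were 3.54% higher and 8.76% lower in the wild-type line, and 8.67% and 9.28% in the Q311E line. TEAD2 rose in both MB21D2 lines, from a mean of 1.63 FPKM to 3.21 in the wild type (0.68 ± 0.09, limma adjusted p = 0.0174) and 4.30 in Q311E (1.01 ± 0.09, limma adjusted p = 0.00567).

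TEAD4 lay above the vector mean of 20.6 FPKM in the wild-type line (27.1) and below it in the Q311E line (15.4). Neither difference passed alone, and the MB21D2 lines differed from each other (-0.78 ± 0.11, limma adjusted p = 0.0106). TEAD3 ranged from 12 to 17.4 FPKM over the 6 libraries and was called in no comparison (limma adjusted p from 0.142 to 0.659). VGLL1 fell from a mean of 3.79 to 0.633 FPKM in the wild-type line (-1.56 ± 0.18, limma adjusted p = 0.0113) and stood at 6.33 in the Q311E line, so that it was 10.0-fold higher there than in the wild type (2.15 ± 0.18, limma adjusted p = 0.00397). VGLL3 was also higher in Q311E than in the wild type (2.06 against 0.594 FPKM, 0.90 ± 0.23, limma adjusted p = 0.0414).

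**Figure D2:**
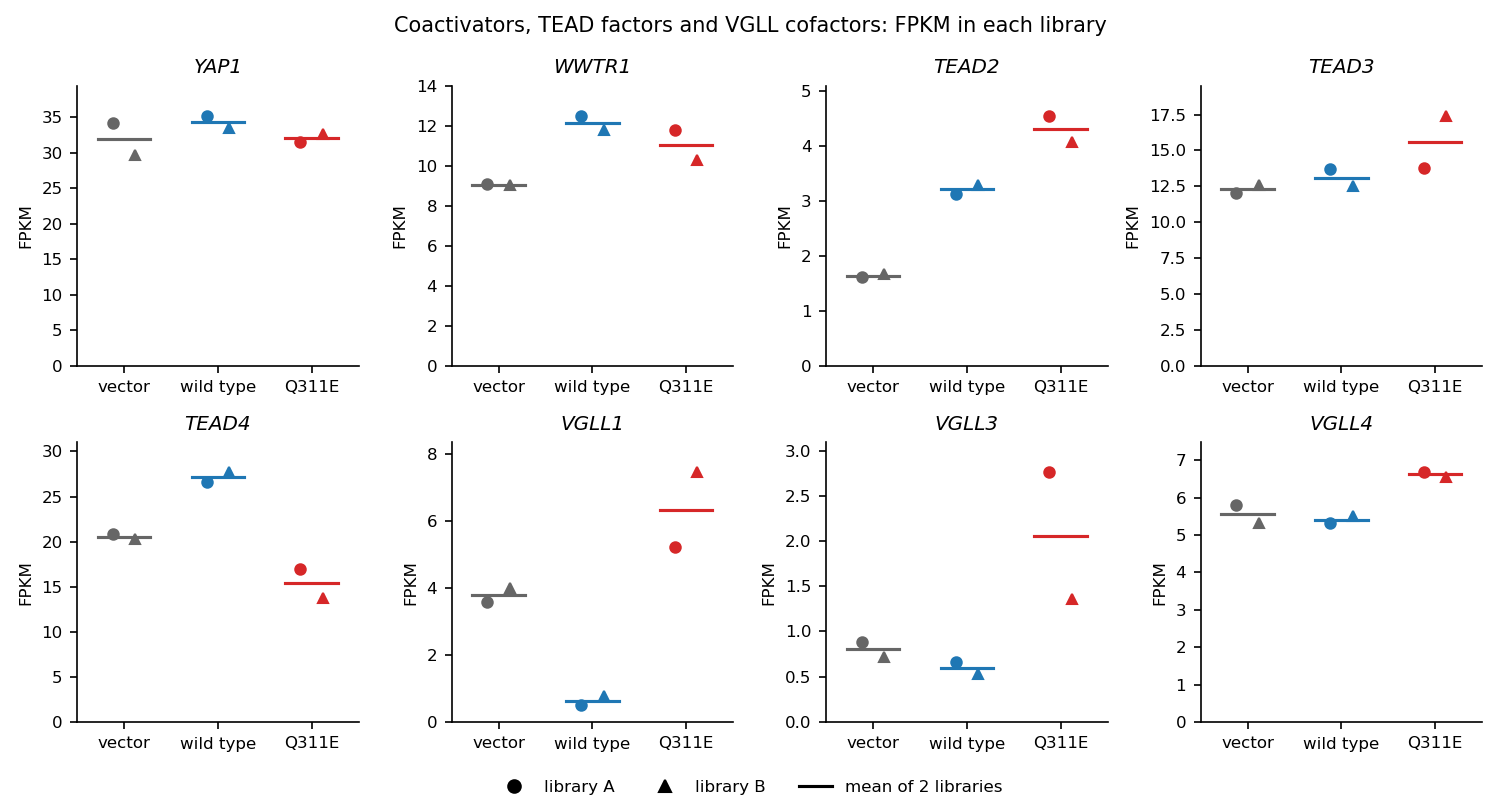
FPKM (vertical axes, starting at 0) of the coactivator genes YAP1 and WWTR1, 3 TEAD genes and 3 VGLL genes in the vector, wild-type and Q311E lines, with circles for library A, triangles for library B and a bar for the mean of the 2. YAP1 stays between 29.7 and 35.2 FPKM in all 6 libraries, while VGLL1 is near 0 in the wild-type line only.

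AXL encodes a receptor tyrosine kinase whose ligand is GAS6. AXL (ENSG00000167601, GRCh38 chromosome 19, 41219203 to 41261766) stood at 98.1 and 80.6 FPKM in the vector libraries, 151 and 148 in the wild-type libraries, and 111 and 39.1 in the Q311E libraries. The wild-type libraries were the highest, and the Q311E libraries lay on both sides of the vector libraries. The log2 fold change was 0.74 ± 0.46 for wild type against vector (limma adjusted p = 0.319), -0.43 ± 0.46 for Q311E against vector (limma adjusted p = 0.545) and -1.17 ± 0.46 for Q311E against wild type (limma adjusted p = 0.11). Without Q311E B the second of these turned to 0.31, and without Q311E A it was -1.17. GAS6 rose in the Q311E line, from a mean of 86.1 to 182 FPKM (1.07 ± 0.10, limma adjusted p = 0.00569), and was at 103 in the wild-type line.

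CRIM1 encodes a transmembrane protein that binds bone morphogenetic proteins. CRIM1 (ENSG00000150938, GRCh38 chromosome 2, 36355926 to 36551135) measured 41.5 and 38.5 FPKM in vector A and B, 41.2 and 38.9 in the wild-type libraries, and 49.8 and 33.8 in the Q311E libraries. The 3 groups overlapped in every comparison. The difference was 0.00 between wild type and vector (95% interval -0.45 to 0.46, limma adjusted p = 0.993) and 0.04 between Q311E and vector (95% interval -0.42 to 0.49, limma adjusted p = 0.902). Against the vector, the kept Q311E library set the sign, with differences of -0.24 without Q311E A and 0.31 without Q311E B.

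ANKRD1 encodes an ankyrin repeat protein of the nucleus and the sarcomere and, like CCN1 and CCN2, serves as a standard readout of YAP and TAZ. ANKRD1 (ENSG00000148677, GRCh38 chromosome 10, 90912096 to 90921276) had 12.6 and 12.5 FPKM in vector A and B, 9.97 and 9.36 in the wild-type libraries, and 40.8 and 6.12 in the Q311E libraries. The wild-type libraries were below the vector libraries, and the Q311E libraries were the highest and the lowest of all 6. With that spread no comparison passed, and the log2 fold change was -0.35 ± 0.78 for wild type against vector (limma adjusted p = 0.785) and 0.35 ± 0.78 for Q311E against vector (limma adjusted p = 0.782). Without Q311E A the latter was -0.93 and without Q311E B it was 1.63, so its sign was set by which library was kept.

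All 10 genes passed the filter of a mean of at least 1 FPKM over the 6 libraries. In wild type against vector, limma called 2 of the 10 higher, CCN1 and CCN2, where 3.54% of the 11481 tested genes were called higher. It called 0 lower (1 at an unadjusted p under 0.05 and 0 with limma-voom), where 8.76% were called lower and 12.3% in either direction. In Q311E against vector 3 were called higher, CCN1, CCN2 and AMOTL2 (background 8.67%), and 1 lower, AJUBA (background 9.28%, and 18.0% in either direction). In Q311E against wild type 0 were called higher (1 at an unadjusted p under 0.05 and 0 with limma-voom; background 17.5%) and 1 lower (background 10.1%, and 27.5% in either direction). Both vector comparisons use the same 2 vector libraries. The median log2 fold change of the 10 genes was 0.35, 0.24 and -0.03 in the 3 comparisons, beside -0.05, 0.00 and 0.05 over all tested genes.

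**Figure D3:**
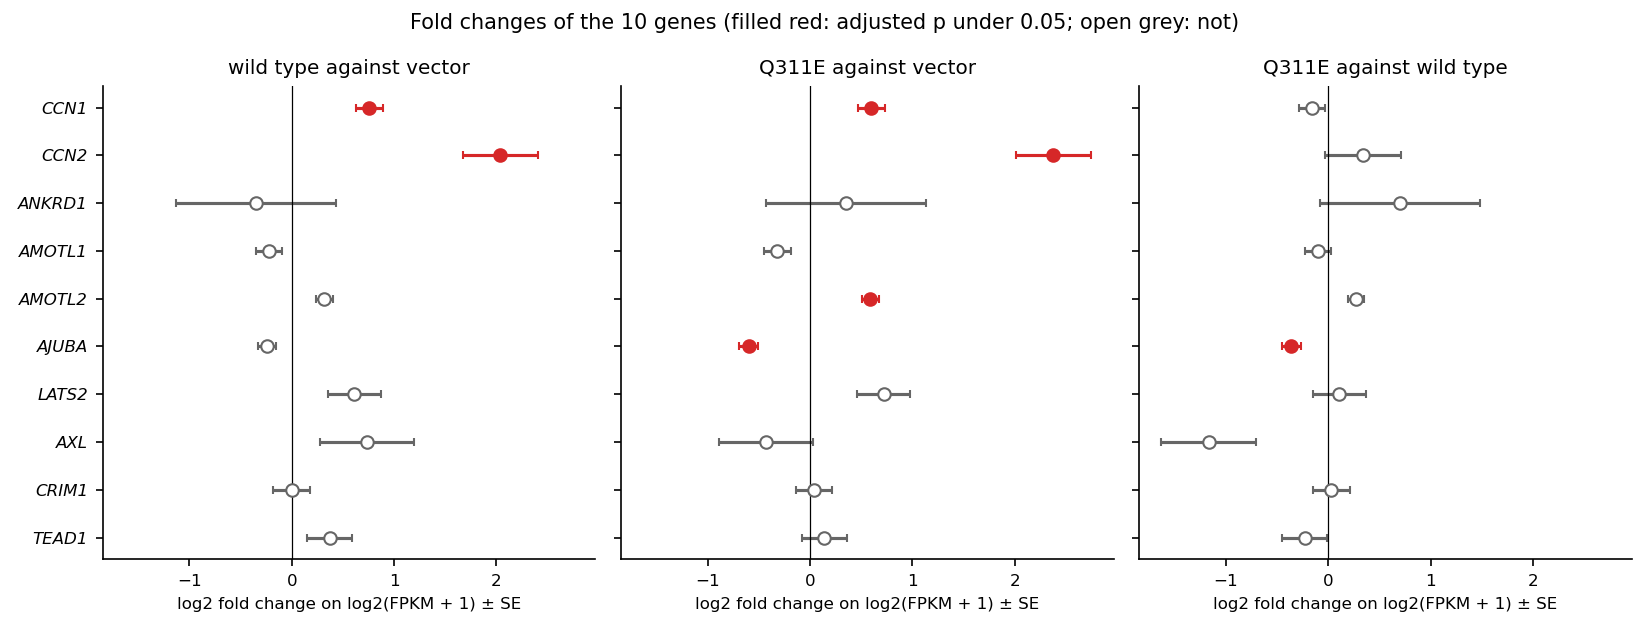
Log2 fold changes ± SE of the 10 genes on the log2(FPKM + 1) scale (horizontal axes) in the 3 comparisons, with filled red points for an adjusted p under 0.05. CCN2 lies farthest to the right in both comparisons with the vector, and ANKRD1 has the widest error bars (SE 0.78).

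Non-overlap of the libraries was common among all genes. In wild type against vector the libraries did not overlap for 9 of the 10, with 6 higher and 3 lower, against 77.0% of tested genes (32.1% higher and 44.9% lower). In Q311E against vector the counts were 4 higher and 2 lower (background 30.1% and 30.0%, 60.1% in all), and in Q311E against wild type 1 higher and 3 lower (background 39.3% and 30.8%, 70.1% in all). No test was made of these counts.

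The number of calls in wild type against vector depended on whether the Q311E libraries entered the fit, where they share in its estimate of error. With only the vector and wild-type libraries in the fit, 8 of the 10 genes were called, 6 higher (CCN1, CCN2, AMOTL2, AXL, LATS2 and TEAD1) and 2 lower (AJUBA and ANKRD1). In that fit 45.9% of tested genes were called, 17.5% higher and 28.4% lower. AXL was called there at an adjusted p of 0.00288 (0.74 ± 0.10), LATS2 at 0.0104, TEAD1 at 0.01 and ANKRD1 at 0.0059 (-0.35 ± 0.06). With a weight per group, which lets the groups differ in spread and was chosen after seeing the data, 7 were called, the same genes without ANKRD1, where 48.0% of tested genes were. For Q311E against vector, the fit of only those 2 groups called 0 of the 10 (3 higher and 1 lower at an unadjusted p under 0.05) and 2.28% of tested genes, and the group weights called 3, AMOTL2, CCN2 and AJUBA, and 7.56% of tested genes.

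The 2 Q311E libraries differed more than the vector libraries in 8 of the 10 genes, the exceptions being AMOTL2 (0.10 against 0.11) and AJUBA (0.12 against 0.17). The median absolute difference between libraries A and B was 0.61 on the log2(FPKM + 1) scale for the 10 genes in the Q311E line, against 0.23 over all tested genes. In the vector line it was 0.15 against 0.09, and in the wild-type line 0.06 against 0.06. ANKRD1 was 6.67-fold higher in Q311E A than in Q311E B, from 1719 and 262 recovered reads (95% exact interval of the ratio 5.85 to 7.62, counting error only). Only 0.122% of tested genes differed as much between these libraries. AXL was 2.83-fold higher in Q311E A (2.74 to 2.93), TEAD1 1.66-fold (1.58 to 1.74) and CRIM1 1.47-fold (1.42 to 1.53).

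CCN2 went the other way and was 2.18-fold higher in Q311E B (95% interval 2.10 to 2.28). It was the only 1 of the 10 genes that was not higher in Q311E A, where 54.3% of tested genes were. MB21D2 was 1.55-fold higher in Q311E A as well, and CD14 was at 4.93 there against 18.8 in Q311E B. The part of these differences in the results of the Q311E line was not tested. The lean to library A was not confined to Q311E. In the vector and wild-type lines 8 of the 10 genes were higher in A, where 53.9% and 55% of tested genes were. CCN2 was also higher in vector B than in vector A, 1.43-fold (95% interval 1.31 to 1.57).

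**Figure D4:**
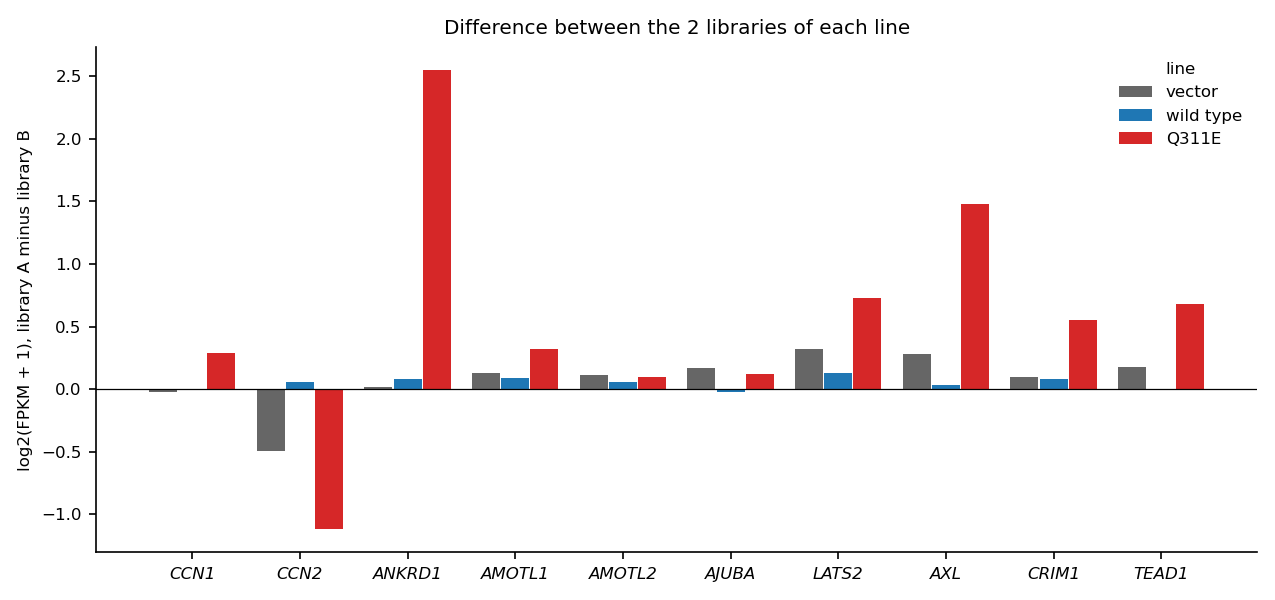
Difference between library A and library B on the log2(FPKM + 1) scale (vertical axis) for the 10 genes, with 1 bar per line. The Q311E bars reach 2.55 for ANKRD1 and 1.48 for AXL, and CCN2 has the only negative Q311E bar, at -1.12.

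Other genes of the pathway were examined from lists. Of 15 further YAP and TAZ targets, 13 were tested. In the wild-type line 0 rose (4 at an unadjusted p under 0.05, 0 with limma-voom) and 1 fell, CCDC80, a matrix-associated protein (2.60 to 1.18 FPKM, -0.73 ± 0.10, limma adjusted p = 0.0164). In the Q311E line 0 rose and 0 fell (2 and 1 at an unadjusted p under 0.05, 0 and 0 with limma-voom). The median log2 fold changes were 0.19 and 0.16, beside -0.05 and 0.00 over all tested genes. Calls over all tested genes were 3.54% higher and 8.76% lower in the wild-type line, and 8.67% and 9.28% in the Q311E line. With only the vector and wild-type libraries in the fit, 6 of the 13 rose and 2 fell in the wild-type line. In that fit 17.5% of tested genes rose and 28.4% fell.

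Between the MB21D2 lines 2 of the 13 were higher in Q311E, IGFBP3 and CCDC80, and 2 lower, ASAP1 and FJX1. Over all tested genes 17.5% were called higher there and 10.1% lower. IGFBP3, a secreted binder of insulin-like growth factors, had a mean of 1010 FPKM in Q311E against 384 in the wild type (1.32 ± 0.30, limma adjusted p = 0.0313). The vector mean was 770, and neither line differed from it past the threshold (wild type at 0.498 of the vector level, limma adjusted p = 0.0893, and Q311E at 1.31 of it, limma adjusted p = 0.494). FJX1, a secreted regulator of the Fat cadherin pathway, had 121 against 230 (-0.94 ± 0.20, limma adjusted p = 0.0249).

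Among 21 tested Hippo kinases, scaffolds and upstream regulators, 0 rose and 0 fell in the wild-type line (2 and 1 at an unadjusted p under 0.05, 0 and 1 with limma-voom). In the Q311E line 2 rose, AMOT and the kinase scaffold SAV1, and 0 fell (0 at an unadjusted p under 0.05, 0 with limma-voom). SAV1 went from a mean of 21.5 to 28.6 FPKM (0.39 ± 0.08, limma adjusted p = 0.0324). For this list and the next, the shares over all tested genes were 3.54% higher and 8.76% lower in the wild-type line. In the Q311E line they were 8.67% and 9.28%. Of 8 tested CCN family and CCN receptor genes, 1 fell in the wild-type line, CCN6 (3.30 to 1.68 FPKM, limma adjusted p = 0.0174), and 1 rose in the Q311E line, the integrin subunit ITGAV (22.6 to 40.4 FPKM, 0.81 ± 0.13, limma adjusted p = 0.0175).

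CCN1 and CCN2 are also immediate early genes in many cell types and respond to SRF and to TGF-beta, so lists for these inputs were examined. Of 14 tested immediate early genes 6 rose and 1 fell in the wild-type line, and 5 rose and 1 fell in the Q311E line, with medians of 0.84 and 1.19. Over all tested genes 3.54% rose and 8.76% fell in the wild-type line and 8.67% rose and 9.28% fell in the Q311E line, with medians of -0.05 and 0.00. EGR1, a zinc finger transcription factor, stood at 15.7 and 29.2 FPKM in the 2 vector libraries, 163 and 157 in the wild-type libraries, and 94.9 and 194 in the Q311E libraries. It rose by 2.84 ± 0.41 on the log2 scale in the wild type (limma adjusted p = 0.0184) and by 2.61 ± 0.41 in Q311E (limma adjusted p = 0.0163). FOS, an AP-1 subunit, had 8.16 and 15.2 FPKM in vector A and B, 87.4 and 81.4 in the wild-type libraries, and 58.3 and 167 in the Q311E libraries, and rose in both lines (limma adjusted p = 0.0308 and 0.0203). JUN, another AP-1 subunit, and ATF3, a stress-response factor of the ATF family, rose in both lines, JUN from a mean of 31.5 FPKM to 67.3 and 78.3. The gene that fell was IER3 in the wild-type line and MYC in the Q311E line.

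SRF, its cofactors MRTFA and MRTFB and their cytoskeletal targets formed 1 list. Its median log2 fold change against the vector was 0.10 for the wild type and -0.02 for Q311E. Of 16 tested, 0 rose (1 at an unadjusted p under 0.05, 0 with limma-voom) and 2 fell in the wild-type line, the actin-binding TAGLN2 (306 to 210 FPKM, limma adjusted p = 0.0337) and the myosin light chain MYL9 (3.99 to 1.70 FPKM, limma adjusted p = 0.0102). In the Q311E line 1 rose and 1 fell, FILIP1L and TAGLN2. Over all tested genes 3.54% rose and 8.76% fell in the wild-type line, and 8.67% and 9.28% in the Q311E line. Of 13 tested TGF-beta responsive genes 2 rose and 2 fell in the wild-type line, and 3 rose and 2 fell in the Q311E line, where 12.3% and 18.0% of all tested genes were called in either direction. TGFBI, a secreted matrix protein, fell in both (-0.55 ± 0.07, limma adjusted p = 0.0144, and -0.79 ± 0.07, limma adjusted p = 0.0056). LTBP2, a latent TGF-beta binding protein family member, went from a mean of 4.38 FPKM to 18.3 and 12.8 and rose in both (limma adjusted p = 0.00145 and 0.00314). BHLHE40, a transcriptional repressor, fell in the wild-type line, the receptor TGFBR1 rose in the Q311E line, and the ligand TGFB1 fell there.

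**Figure D5:**
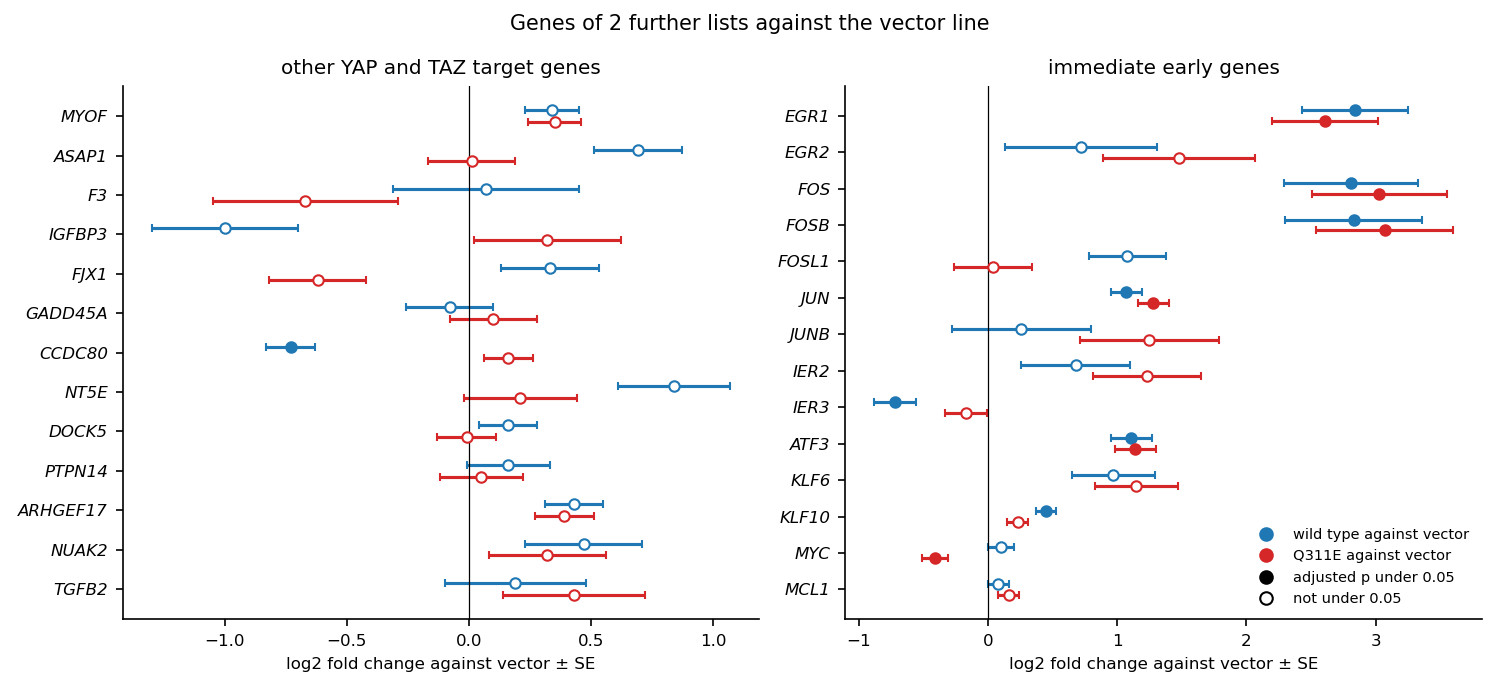
Log2 fold changes against the vector ± SE (horizontal axes) of 13 further YAP and TAZ targets and 14 immediate early genes, in blue for the wild-type line and red for Q311E, filled where the adjusted p was under 0.05. CCDC80 is the only filled point on the left, and EGR1, FOS and FOSB lie at 2.61 or above in both lines on the right.

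The genes whose profile over the 6 libraries lay closest to that of CCN2 were DUSP1, IRX4, TNNI2, the unnamed ENSG00000269376 and EGR1. Closeness was the root mean square difference in log2(FPKM + 1) after centring each gene, among 11481 tested genes, and it ran from 0.247 for DUSP1 to 0.352 for EGR1. DUSP1, a phosphatase of MAP kinases, measured 5.39 and 7.53 FPKM in vector A and B, 21.0 and 17.9 in the wild-type libraries, and 20.9 and 50.7 in the Q311E libraries. The closest to TEAD1 were CEP295 (0.021), NEDD4L (0.034), ANKRD18A (0.040), NUAK1 (0.040) and BLTP2 (0.041).

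Genes near the called targets were examined as well. The 15 tested genes on each side of a target, in order of start position, were taken. Their median log2 fold change was -0.09 around CCN2 and -0.21 around CCN1 in wild type against vector. In Q311E against vector it was 0.02 around CCN2, -0.02 around CCN1, -0.03 around AMOTL2 and 0.10 around AJUBA. Exons of 6 of the 10 genes share bases with another gene in GENCODE release 29. The antisense gene AL133346.1 shares 195 bases with CCN2 and was at no more than 1.31 FPKM. Whether counting used strand is not given in the sources used here, so reads from such bases cannot be assigned with certainty.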

How the data were processed

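The members and gene lists were chosen with earlier results of these data known. Per the file headers, the deposited table holds 1 column for each of the 6 libraries. Its FPKM values were made by the authors; the unit rests on the table's name and its values. CASAVA, mm8 and mm9 appear in the submitters' processing notes with no role, although the gene IDs are human; the sources used here give no aligner, counter, annotation or strand setting. Symbols matched 29993 of 30178 IDs, and positions and exon lengths came from GENCODE release 29.

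Whole reads (tolerance 0.001) were recovered from the FPKM values for 30030 genes (99.51%), 22361 at the GENCODE length and the rest at a fitted length; recovered totals set the precision. The log2(FPKM + 1) values, on which changes of low genes are understated, were tested by limma 3.58.1 (R 4.3.3) with 3 groups in 1 fit, a variance trend and a minimum mean of 1 FPKM, and Benjamini-Hochberg adjustment over 11481 genes (threshold 0.05, two-sided). limma-voom on recovered reads called 1474, 2082 and 3217 genes in the 3 comparisons. The fit was tested only on simulated data in which the 3 groups had the same spread. That does not hold here, so the test does not cover the unequal spread of the groups. Of the genes in the 8 lists, those named were the called members with the smallest p, the coactivators and TEAD genes, and the 5 nearest profiles to CCN2 and TEAD1; CD14 was singled out after its values were seen. The values of 1 list gene are not reported here. Figures used matplotlib 3.10.9.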

Additional observations from a re-analysis of the deposited data

How the results depend on the processing

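Both CCN genes and the other called targets rest on 2 libraries per group and 3 residual degrees of freedom, and arm sizes fell to 1 where a library was left out, with the lone library assumed to vary like the others. In wild type against vector, the 2 called targets became 0 without a filter, 1 under quantile normalization, 8 with only the 2 groups, 7 with group weights and 0 to 8 with 1 library left out. The 17 called list genes became 5, 61 and 57 (no filter, 2 groups, weights; 0 to 61 with a library left out), and the 1412 called genes overall 393, 5273 and 5508 (7 to 5262). In Q311E against vector, the 4 called targets became 2 without a filter, 0 with only the 2 groups and 0 to 8 with a library left out. The 18 list genes became 9 and 5 (0 to 55), and the 2061 genes overall 1210 and 262, with 868 under group weights (3 to 5683). In Q311E against wild type, the 1 called target became 0 without a filter, under TPM scaling, with 2 groups and with weights, 2 under quantile normalization, and 0 to 8 with a library left out. The 19 list genes became 12 and 6 (0 to 65), and the 3162 genes overall 1608, 973 and, with weights, 2001 (0 to 6961). The cause was not tested.

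Signs turned only for differences that were not called with all 6 libraries in the fit. Some of these were called, with either sign, once a Q311E library was left out. In wild type against vector, CRIM1 was -0.05 without vector B, 0.05 without vector A and -0.04 without wild type A, and 0.08 with median scaling. In Q311E against vector, without Q311E A and without Q311E B, ANKRD1 was -0.93 and 1.63, CRIM1 -0.24 and 0.31, TEAD1 -0.20 and 0.48, and AXL -1.17 and 0.31; CRIM1 was -0.01 without vector B. In Q311E against wild type, in the same order, ANKRD1 was -0.58 and 1.97, LATS2 -0.25 and 0.48, CRIM1 -0.24 and 0.31, CCN2 0.90 and -0.22, AMOTL1 -0.26 and 0.06, and TEAD1 -0.57 and 0.11; CRIM1 was -0.01 without wild type B and -0.07 with median scaling. Median scaling and quantile normalization moved the median of all genes by -0.1063 and -0.1122 there, and AJUBA stayed called at -0.47 and -0.35. Library letters were not taken to pair the samples, since same-letter deviations correlated at -0.026 and -0.006 with the wild type, though at 0.387 between vector and Q311E. A replicate block gave 2, 5 and 1 called targets, with LATS2 added in Q311E against vector (0.72, adjusted p = 0.0464), 19, 20 and 19 list genes and 1299, 1942 and 3264 genes overall.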
